A study of Mus musculus with 12 samples.

Results

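The genes described here are 9 components of the renin-angiotensin system: the substrate gene Agt, the renin gene Ren1, the (pro)renin receptor gene Atp6ap2, the converting enzyme gene Ace, the receptor genes Agtr1a and Mas1, and the peptidase genes Enpep, Anpep and Mme. They were chosen by name as members of the pathway and found by Ensembl identifier and GENCODE M21 symbol, 9 of the 47719 genes in the deposited table. RNA was sequenced in 12 libraries of kidney from male C57BL6/J mice, whose age the labels give as 8 weeks, with 3 libraries in each of 4 groups. EtOH_LPS mice drank the Lieber DeCarli liquid diet with ethanol, raised in steps to 6%, over 6 weeks and were injected intraperitoneally with 10 mg/kg lipopolysaccharide (LPS) of E. coli, the bacterial outer membrane component that TLR4 recognises. PF_LPS mice were pair fed a diet of equal calories with maltose-dextrin in place of ethanol and received the same LPS dose. EtOH mice had the ethanol diet with saline, and PF mice the pair-fed diet with saline. The labels name the source as whole kidney, while their extraction protocol has the cortex separated and frozen, so the libraries are read here as cortex. All kidneys were taken 4 hours after the injection, so a single dose and a single time of LPS were measured, and the labels name no genetic change in any group. The labels do not say that the replicates of a group are separate mice, so every p-value below reflects only how far these libraries spread, which may be technical.

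Renin, released by the juxtaglomerular cells of the afferent arteriole, cuts angiotensinogen to angiotensin I, which angiotensin-converting enzyme turns into angiotensin II. Angiotensin II acts through the type 1 receptor on vessels, mesangial cells and tubules to constrict arterioles, retain sodium and, by feedback, hold back renin. The kidney also makes its own angiotensinogen in the proximal tubule, and the brush border there carries ACE, aminopeptidase A, aminopeptidase N and neprilysin, which make or break down angiotensin peptides. C57BL/6 mice carry a single renin gene, and rodents have separate Agtr1a and Agtr1b genes for the type 1 receptor.

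LPS lowered the RNA of the type 1 receptor gene Agtr1a. The other members did not pass the test with LPS, and no member passed it with ethanol. Agtr1a averaged 11.4 ± 6.02 FPKM in EtOH_LPS and 8.11 ± 1.45 FPKM in PF_LPS, against 20.4 ± 5.78 FPKM in EtOH and 18.0 ± 2.58 FPKM in PF (SD, n = 3 each). FPKM counts sequenced fragments per length of a gene's transcript, scaled for sequencing depth in a way the sources used here do not give. A gene was called when its limma p-value, adjusted over all 14109 genes tested, was below 0.05. In PF_LPS against PF, 1 of the 8 tested members was called (12.5%), where 18.2% of all genes tested were called, 11.3% as higher and 6.89% as lower. In EtOH_LPS against EtOH, limma called 0 of 8 members at a background of 17.1% of all genes, 10.7% as higher and 6.39% as lower. At an unadjusted p below 0.05 there was 1 member in that comparison, beside 3987 of the 14109 genes tested. With the LPS effect averaged over both diets, 1 of 8 was called at a background of 29.6%, 16.4% as higher and 13.2% as lower. With 8 members tested, 0 or 1 call is too few to set the members apart from all genes. In PF_LPS against PF that 1 call was a fall, beside 6.89% of all genes called lower and 18.2% called in either direction. Mas1 is the member that was not tested, because it reached 1 FPKM in none of the libraries. RNA of bulk cortex was measured, so fewer cells of a type and less RNA per cell cannot be told apart.

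**Figure D1:**
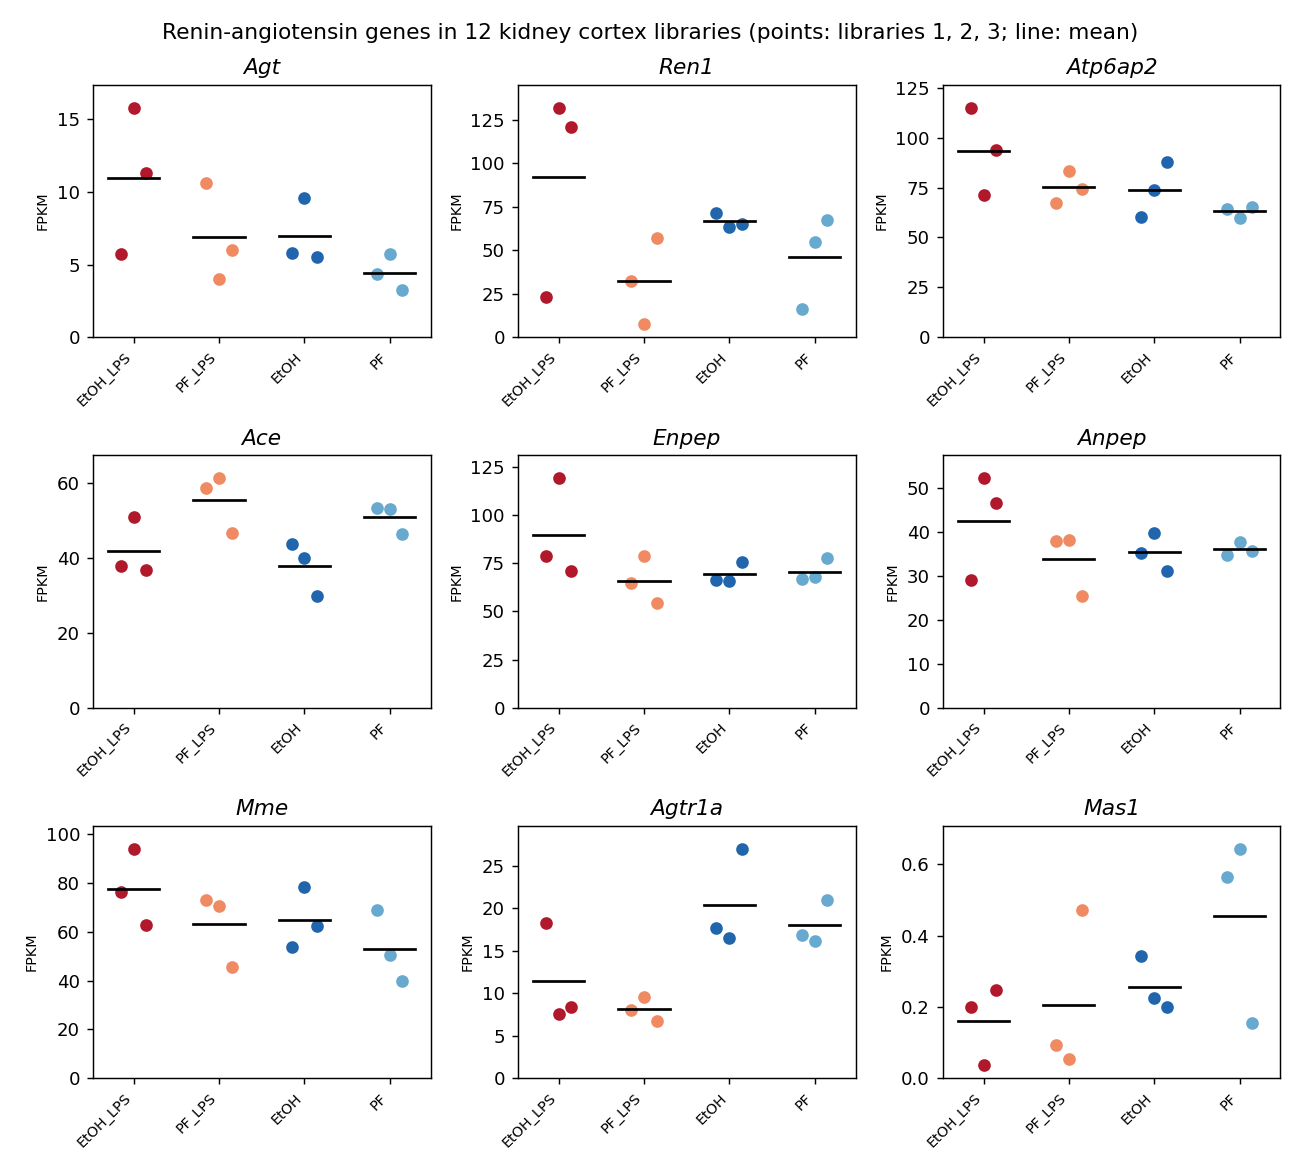
FPKM of the 9 members in each library (y axes in FPKM, starting at 0; points are libraries 1, 2 and 3 of a group, lines are group means). Agtr1a lies at or below 9.61 FPKM in 5 of the 6 LPS libraries and at or above 16.2 FPKM in all 6 saline libraries, and Ren1 spreads from 7.49 to 132 FPKM.

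The libraries were alike in breadth but not in scale. The deposited FPKM summed to 1005219 to 1935824 per library, 12354 to 13092 genes reached 1 FPKM, and all 37 mitochondrial genes were listed at 0. Steps between low values put the depth of the LPS libraries at 0.49 to 0.763 and that of the saline libraries at 0.722 to 1.206 of PF library 1, as a description of relative depth only. EtOH_LPS library 1, PF_LPS library 2 and PF library 1 had low values of GC-rich genes, with slopes of -0.308, -0.412 and -0.248 log2 units per 10 percentage points of transcript GC around their group means, against -0.077 to 0.214 in the other 9 libraries. The markers of the proximal tubule were high in all libraries (summed FPKM 45927 to 110555 over 12 genes). With LPS, limma called 0 of 12 in either diet, beside 17.1% of all genes in ethanol-fed and 18.2% in pair-fed mice. At an unadjusted p below 0.05 there were 0 of these markers in each diet. Adrenal cortex markers, a possible carry-over in kidney dissection, summed to at most 1.05 FPKM over 7 genes, and Cyp11b1, Cyp11b2 and Cyp11a1, which make adrenal steroids, were below 0.1 FPKM in every library.

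Agt encodes angiotensinogen, the substrate from which all angiotensin peptides are cut (ENSMUSG00000031980, chr8:124556534-124569706, minus strand, mm10). It had 5.75, 15.8 and 11.3 FPKM in EtOH_LPS, and 10.6, 4.04 and 6.04 FPKM in PF_LPS. In saline-injected mice it had 5.81, 9.61 and 5.53 FPKM in EtOH, and 4.32, 5.73 and 3.23 FPKM in PF. Of the LPS libraries 3 exceeded every saline library and the other 3 lay within the saline range. LPS and saline libraries overlapped within each diet, and ethanol and pair-fed libraries within each injection. The log2 fold change was 0.52 ± 0.37 in EtOH_LPS against EtOH (SE; 95% interval -0.29 to 1.34; adjusted p = 0.41) and 0.48 ± 0.37 in PF_LPS against PF (95% interval -0.34 to 1.30; adjusted p = 0.416). Averaged over diets it was 0.50 ± 0.26 (adjusted p = 0.182), and Agt passed the threshold in 2 of 23 alternatives, at 0.66 (adjusted p = 0.036) with the GC trend of each library removed and at 0.82 (adjusted p = 0.0232) without the 3 libraries of low GC slope. Those 2 alternatives were chosen after seeing the data. Over all 23 alternatives the adjusted p lay between 0.0232 and 0.701.

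The sequence upstream of Agt is shown because several factors reported to act on it were among the genes that rose with LPS. That upstream of Ace is shown beside it as the next enzyme of the pathway. Whether any factor bound these sequences was not tested, and neither Agt nor Ace was called with LPS. RefSeq (GRCm38.p6, the assembly also called mm10) gave 11 promoter windows for 8 of the 9 members, and 250 bases upstream of each start were searched on both strands. Capitals mark a TATA box (TATAAA) and the letters TTCNNNGAA, which STAT factors bind. Agt is given from chr8:124569707-124569956, minus strand, and Ace, trimmed of an annotated exon, from chr11:105967698-105967944, plus strand.
Agt: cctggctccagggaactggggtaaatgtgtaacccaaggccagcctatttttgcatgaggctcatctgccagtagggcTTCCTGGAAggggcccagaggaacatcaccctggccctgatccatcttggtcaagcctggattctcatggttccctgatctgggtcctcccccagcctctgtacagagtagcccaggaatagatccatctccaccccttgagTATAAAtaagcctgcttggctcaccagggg
Ace: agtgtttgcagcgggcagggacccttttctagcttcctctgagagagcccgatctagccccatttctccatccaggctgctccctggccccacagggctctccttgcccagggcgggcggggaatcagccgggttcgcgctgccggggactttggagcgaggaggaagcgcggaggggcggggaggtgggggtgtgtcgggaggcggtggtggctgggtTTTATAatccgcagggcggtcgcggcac
The TATA box starts 30 bases before the Agt start and the TTCNNNGAA match 172 bases before it. In Ace the TATA box reads on the opposite strand and begins at position -31. A TATA box was in 12.4% of the 32851 windows of RefSeq promoters, and also stood in the windows of Ren1 and Enpep. The TTCNNNGAA letters were in 7.02% of windows, and also stood in a window of Enpep and in 1 of the 3 windows of Mme. The C/EBP letters TTGCNNAA, in 9.56% of windows, stood in the window of Enpep and not in those of Agt or Ace. A loose NF-kB motif, in 45.8% of windows, had 2 overlapping matches upstream of Agt and 1 at position -176 upstream of Ace, which are not in capitals. It also stood in windows of Mme, Enpep, Anpep and Atp6ap2. The interferon-stimulated response element (2.98% of windows) and the cAMP-response letters TGACGTCA (1.55%) were in no member's window. Upstream of Ace the GC content was 67.2%, and upstream of Agt 55.6%.

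Of 10 transcription factors reported on the Agt promoter, 6 rose and 0 fell in EtOH_LPS against EtOH, and 6 rose and 1 fell in PF_LPS against PF. Among all genes tested, 10.7% rose and 6.39% fell in the former, and 11.3% rose and 6.89% fell in the latter. The median log2 fold change of the list was 2.33 in ethanol-fed and 1.83 in pair-fed mice, beside 0.02 and -0.01 over all genes tested. Irf1, an interferon-induced factor, rose by 5.05 ± 0.43 log2 units in ethanol-fed mice (adjusted p = 6.39e-06) and by 4.29 ± 0.43 in pair-fed mice (adjusted p = 2.53e-05). The acute-phase factors Cebpd and Cebpb rose by 3.47 and 3.58 in ethanol-fed mice and by 4.44 and 4.00 in pair-fed mice. Stat3, which transmits interleukin-6 signals, rose by 2.47 and 2.57, and the NF-kB subunits Nfkb1 and Rela by 2.44 and 2.21 in ethanol-fed and by 2.14 and 1.52 in pair-fed mice. Hnf4a, a factor of differentiated proximal tubule and liver cells, fell by 0.95 log2 units in pair-fed mice (adjusted p = 0.0188) and stood at -0.74 ± 0.24 in ethanol-fed mice (adjusted p = 0.0607). Agt itself was not called in either comparison, as given above.

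Ren1 encodes renin, the aspartic protease that starts the cascade (ENSMUSG00000070645, chr1:133350510-133360325, plus strand). It had 22.9, 132 and 121 FPKM in EtOH_LPS, and 32.3, 7.49 and 57.2 FPKM in PF_LPS. Saline libraries had 71.7, 63.5 and 64.9 FPKM in EtOH, and 16.0, 54.9 and 67.3 FPKM in PF. One library stood well below the others in EtOH_LPS, PF_LPS and PF, while the EtOH libraries lay close together. The coefficient of variation was 65.3% in EtOH_LPS, 76.9% in PF_LPS, 6.55% in EtOH and 58.1% in PF, and its median exceeded that of 93.2% of the genes tested. In each of those 3 groups the lowest Ren1 library was also the one of lowest GC slope, and the Ren1 transcript has 54.6% GC. The part of GC content in the Ren1 spread was not tested.

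**Figure D2:**
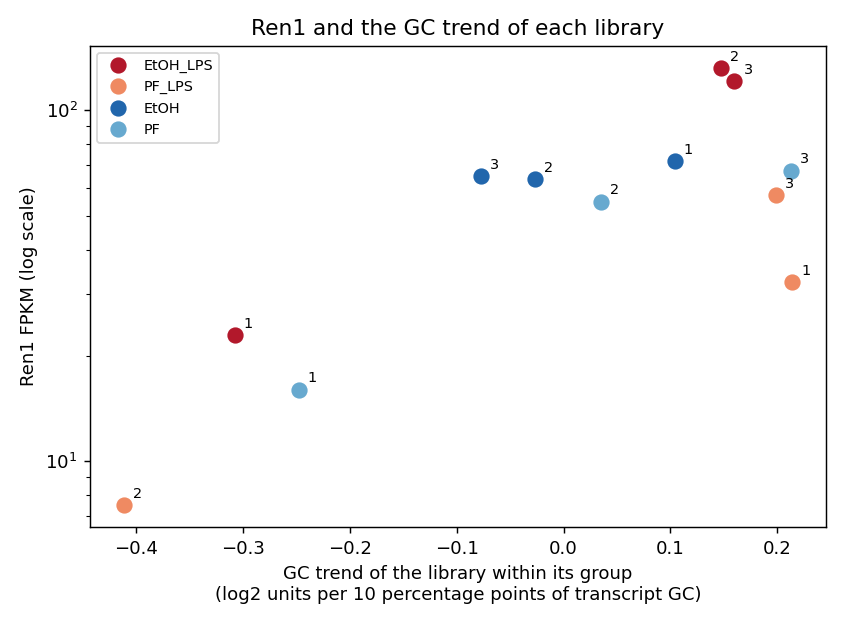
Ren1 FPKM (log axis) against the GC slope of each library around its group mean (log2 units per 10 percentage points of transcript GC), with the replicate number beside each point. PF_LPS library 2, EtOH_LPS library 1 and PF library 1, at slopes of -0.412, -0.308 and -0.248, have the 3 lowest Ren1 values, 7.49, 22.9 and 16.0 FPKM.

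With this spread no comparison of Ren1 passed the test. The log2 fold change was 0.11 ± 0.86 in EtOH_LPS against EtOH (95% interval -1.84 to 2.05; adjusted p = 0.962) and -0.66 ± 0.86 in PF_LPS against PF (-2.61 to 1.29; adjusted p = 0.649). For both ethanol groups against both pair-fed groups it was 1.13 ± 0.61 (-0.24 to 2.51; adjusted p = 0.632). A fit chosen after seeing the data left out the 3 libraries of low GC slope, which also hold the 3 lowest Ren1 values. Ren1 was then called in EtOH_LPS against EtOH, at 0.91 (adjusted p = 0.0218), with 132 and 121 FPKM against 71.7, 63.5 and 64.9 FPKM. Since the low EtOH_LPS value was left out, this call rests on the choice of libraries. Ren1 was not called in the other 23 alternatives of that comparison, where the adjusted p reached 1, and removing the GC trend left it at 0.16 (adjusted p = 0.917). In the same fit without the 3 libraries Ren1 stood at -0.49 (adjusted p = 0.247) in PF_LPS against PF, and at 0.83 (adjusted p = 0.145) for ethanol against pair-feeding.

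Atp6ap2 encodes the (pro)renin receptor, which is also an accessory subunit of the vacuolar proton pump (ENSMUSG00000031007, chrX:12587801-12617049, plus strand). It had 115, 71.3 and 93.8 FPKM in EtOH_LPS, 67.5, 83.4 and 74.5 FPKM in PF_LPS, 60.3, 73.7 and 87.9 FPKM in EtOH, and 64.1, 59.9 and 65.2 FPKM in PF. PF was the lowest and tightest group and did not overlap PF_LPS, while EtOH_LPS and EtOH overlapped. Separation of 3 against 3 libraries cannot go below p = 0.1 by permutation. The share of all genes so separated is not given here. The difference did not pass the test in PF_LPS against PF (log2 fold change 0.24 ± 0.20, adjusted p = 0.452) or in EtOH_LPS against EtOH (0.32 ± 0.20, adjusted p = 0.344). Of the 21 V-ATPase subunit genes, Atp6ap2 included, 1 rose and 1 fell in ethanol-fed mice with LPS, and 0 rose and 2 fell in pair-fed mice with LPS. Of all genes tested, 17.1% and 18.2% were called in these comparisons. Atp6v1c2, a tissue-restricted isoform of the C subunit, was the one that fell in both diets, by 0.64 and 1.59 log2 units in ethanol-fed and pair-fed mice. Atp6v1b1, also of intercalated cells, fell by 1.02 in pair-fed mice, and Atp6v0a4 rose by 0.69 in ethanol-fed mice. Of 6 intercalated cell markers, 3 of which are pump subunits, 0 rose and 1 fell in ethanol-fed mice (Slc4a1, by 1.14), and 0 rose and 2 fell in pair-fed mice (Slc4a1, by 1.57, and Atp6v1b1). Their summed level was 62.6 to 84.7 FPKM in EtOH_LPS against 71.3 to 99.1 in EtOH, and 44.1 to 68.9 in PF_LPS against 66.0 to 78.9 in PF, and the ranges overlapped in both diets. The part of intercalated cells in the fall of Atp6v1c2 and Atp6v1b1 was not tested.

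Ace encodes angiotensin-converting enzyme (ENSMUSG00000020681, chr11:105967945-105989964, plus strand), and the antisense gene Gm11651 overlaps it. The sources used here do not say whether the counting used strand, so fragments of the overlap may be shared. Ace had 37.8, 50.9 and 36.9 FPKM in EtOH_LPS, and 58.6, 61.3 and 46.8 FPKM in PF_LPS. Saline libraries had 43.8, 39.9 and 29.9 FPKM in EtOH, and 53.5, 53.1 and 46.3 FPKM in PF. All 3 EtOH libraries lay below all 3 PF libraries, whereas EtOH_LPS library 2 lay within the PF_LPS range. As for Atp6ap2, the separation of EtOH from PF is only a description of 3 against 3 libraries. With LPS, Ace moved by 0.14 ± 0.20 log2 units in ethanol-fed mice (95% interval -0.28 to 0.57) and by 0.12 ± 0.20 in pair-fed mice (-0.31 to 0.54), neither called.

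Ethanol was where Ace came nearest to the threshold. Over both ethanol groups against both pair-fed groups its log2 fold change was -0.42 ± 0.14 (95% interval -0.72 to -0.12), with an unadjusted p of 0.0107 and an adjusted p of 0.306. The value was -0.41 ± 0.20 in EtOH_LPS against PF_LPS and -0.43 ± 0.20 in EtOH against PF, with adjusted p = 0.479 and 1. In all 23 alternatives of the pooled comparison Ace stood between -0.49 and -0.24 and was not called, with adjusted p between 0.256 and 0.709. No member was called in any ethanol comparison by limma. The background was 0.0992% of all genes in EtOH_LPS against PF_LPS, 0.0284% in EtOH against PF, and 0.319% in the pooled comparison. At an unadjusted p below 0.05 there were 0, 1 and 1 members in these 3 comparisons, beside 1524, 521 and 1334 of the 14109 genes tested. The member at an unadjusted p below 0.05 was Ace each time. The interaction of diet and LPS called 0 of 8 members, at a background of 0.0284% and with 0 at an unadjusted p below 0.05, so a different LPS response under ethanol was not detected for any member.

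**Figure D3:**
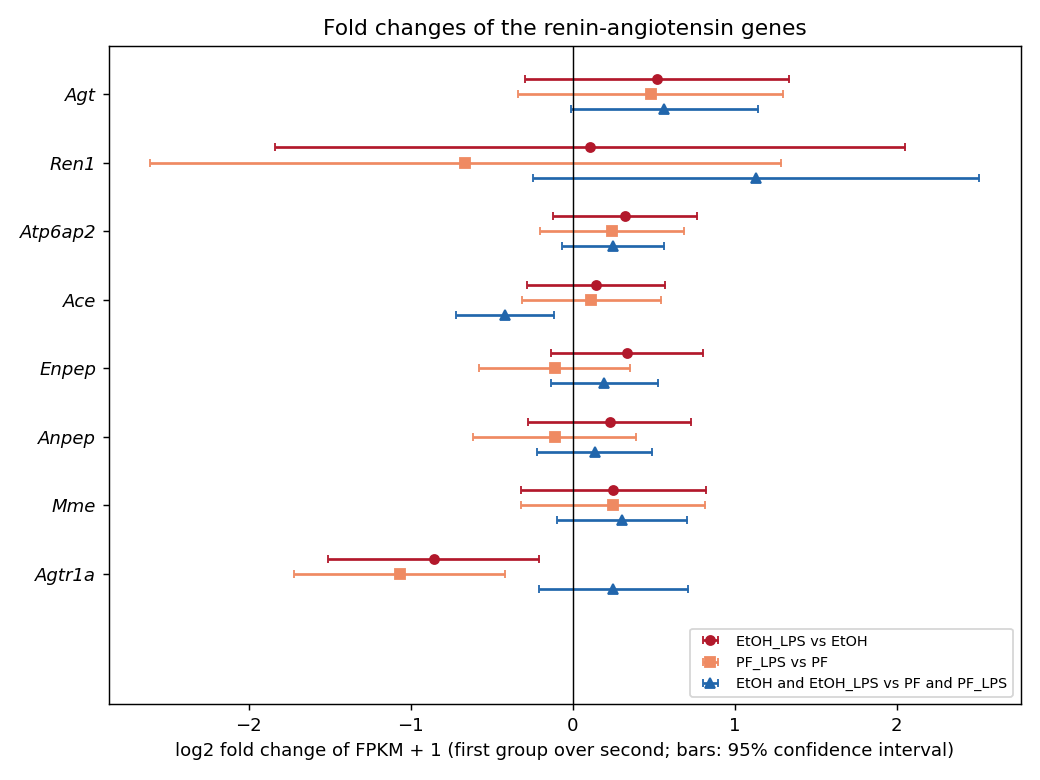
Log2 fold changes of the 8 tested members, with 95% confidence intervals, for EtOH_LPS against EtOH, PF_LPS against PF, and both ethanol groups against both pair-fed groups (x axis in log2 units of FPKM + 1). The intervals of Agtr1a lie below 0 in both LPS comparisons, the interval of Ace lies below 0 for ethanol, and those of Ren1 are the widest.

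Agtr1a encodes the main type 1 angiotensin II receptor of the mouse kidney (ENSMUSG00000049115, chr13:30336441-30382867, plus strand). It had 18.3, 7.51 and 8.37 FPKM in EtOH_LPS and 8.00, 9.61 and 6.72 FPKM in PF_LPS, against 17.7, 16.5 and 27.0 FPKM in EtOH and 16.9, 16.2 and 21 FPKM in PF. EtOH_LPS library 1 was the exception among the LPS libraries and lay within the saline range. Agtr1a fell by 1.07 ± 0.30 log2 units in PF_LPS against PF (adjusted p = 0.0281), to a fold of 0.478. In EtOH_LPS against EtOH it stood at -0.86 ± 0.30 (adjusted p = 0.0746), and the difference between the diets was 0.21 ± 0.42 (interaction, adjusted p = 0.988). Averaged over diets it fell by 0.96 ± 0.21 (adjusted p = 0.00464), and this call was made in all 23 alternatives, with adjusted p between 0.00023 and 0.0172.

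Relative to the median of all genes, Agtr1a stood between -0.91 and -0.87 log2 units in ethanol-fed and between -1.10 and -1.06 in pair-fed mice under the deposited values and scaling to equal total FPKM, equal protein coding total or quantiles. The calls within 1 diet changed when 1 library was left out. In pair-fed mice the call was lost without PF_LPS library 1 (adjusted p = 0.0568), PF_LPS library 3 (0.0839), PF library 1 (0.0551), PF library 2 (0.0615) or PF library 3 (0.105), and with no filter on low values (0.0859). The log2 fold change with 1 library left out stayed between -1.18 and -0.95. It was made in the other 18 of 24 alternatives, with an adjusted p of 0.0044 at the lowest. In ethanol-fed mice Agtr1a was called without EtOH_LPS library 1, at -1.23 (adjusted p = 0.00377), and in 6 of 24 alternatives in all, with adjusted p between 0.00377 and 0.255. EtOH_LPS library 1 was also 1 of the 3 libraries of low GC slope, and the Agtr1a transcript has 46.5% GC. Without those 3 libraries the averaged fall was -1.23 (adjusted p = 0.000432), and with the GC trend removed it was -1.03 (adjusted p = 0.00132).

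The other angiotensin receptors were near the floor of the table. Mas1 encodes the Mas receptor, which responds to a shortened angiotensin peptide (ENSMUSG00000068037, chr17:12841079-12868143, minus strand), and the antisense RNA Airn overlaps it. It had 0.201, 0.0366 and 0.246 FPKM in EtOH_LPS, 0.0918, 0.0546 and 0.472 FPKM in PF_LPS, 0.343, 0.226 and 0.199 FPKM in EtOH, and 0.563, 0.643 and 0.156 FPKM in PF. All group pairs overlapped, and with no filter on low values Mas1 stood at -0.12 ± 0.17 in ethanol-fed and -0.27 ± 0.17 log2 units in pair-fed mice with LPS (adjusted p = 0.824 and 0.493). Agtr1b, the second type 1 receptor gene, reached at most 0.0764 FPKM. Agtr2, the type 2 receptor gene, reached 0.496 FPKM in EtOH_LPS library 2 and 0.703 FPKM in PF_LPS library 2 and at most 0.0816 FPKM in the other 10 libraries. At these levels a change was not detectable.

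Mesangial and vascular smooth muscle cells, where Agtr1a is known to act, were read through 10 marker genes. Their summed level was 24.0 to 33.7 FPKM in EtOH_LPS, 16.3 to 25.7 in PF_LPS, 27.4 to 30.8 in EtOH and 23.9 to 28.2 in PF, and none of the 10 was below 0.1 FPKM everywhere. Of 9 tested, 0 rose and 1 fell in ethanol-fed mice and 0 rose and 2 fell in pair-fed mice: Itga8, an integrin of mesangial cells, fell by 0.77 and 0.82 log2 units, and Des by 0.79 in pair-fed mice. Endothelial markers fell more widely, 5 of 8 in ethanol-fed and 6 of 8 in pair-fed mice, with Cdh5 rising in both. Among all genes tested, 10.7% rose and 6.39% fell in ethanol-fed mice, and 11.3% rose and 6.89% fell in pair-fed mice. Their summed level was 54.8 to 71.7 FPKM in EtOH_LPS and 45.8 to 55.8 in PF_LPS, against 117 to 139 in EtOH and 105 to 136 in PF. The part of either cell type in the fall of Agtr1a was not tested.

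Other cell types were read in the same way, beside 17.1% and 18.2% of all genes called in ethanol-fed and pair-fed mice with LPS. Of 4 tested juxtaglomerular markers, Ren1 included, limma called 0 in either diet, also with 0 at an unadjusted p below 0.05. The summed level of the 6 listed markers counts Ren1 itself and so moves with it. It was 38.8 to 151 FPKM in EtOH_LPS, 20 to 75.1 in PF_LPS, 81.7 to 92.1 in EtOH and 32.4 to 82 in PF. Macula densa and thick limb markers had 1 of 4 higher in each diet, which was Ptgs2. Podocyte markers had 0 of 5 called by limma in ethanol-fed mice, with 1 at an unadjusted p below 0.05, and 0 higher and 1 lower (Podxl) in pair-fed mice. Their summed level was 70.6 to 90.2 FPKM in EtOH_LPS against 90.6 to 95.8 in EtOH, and 58.6 to 66.7 in PF_LPS against 80.5 to 89.3 in PF, with no overlap in either diet, and its part in the members' values was not tested. Leukocyte markers summed to 176 to 260 FPKM in EtOH_LPS and 186 to 424 in PF_LPS, against 14.3 to 17.6 in EtOH and 14 to 18.3 in PF, with 2 of 7 higher in ethanol-fed and 3 of 7 in pair-fed mice. The neutrophil genes S100a8 and S100a9 rose by 5.03 and 5.19 log2 units in ethanol-fed mice and by 5.42 and 5.22 in pair-fed mice. Hepatocyte markers had 1 of 5 higher in ethanol-fed mice (Cyp2e1, which the kidney also expresses) and 0 of 5 called in pair-fed mice, with 1 at an unadjusted p below 0.05. Tat, a liver aminotransferase, was below 0.1 FPKM in every library. The 7 listed markers together summed to 1108 to 1331 FPKM in EtOH_LPS against 600 to 878 in EtOH. In PF_LPS they summed to 1478 to 1810 FPKM against 1036 to 1324 in PF, with no overlap in either diet. Like those of the podocyte sums, these separations only describe 3 against 3 libraries. The part of the hepatocyte sum in the members' values was not tested.

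Enpep encodes aminopeptidase A, which turns angiotensin II into angiotensin III (ENSMUSG00000028024, chr3:129269175-129332720, minus strand). It had 78.9, 119 and 70.9 FPKM in EtOH_LPS, 64.9, 78.8 and 54.1 FPKM in PF_LPS, 66.1, 65.9 and 75.7 FPKM in EtOH, and 66.7, 67.6 and 77.5 FPKM in PF. EtOH_LPS library 2 stood well above the other 11 libraries, and LPS and saline libraries overlapped in both diets. Enpep stood at 0.34 ± 0.21 log2 units in EtOH_LPS against EtOH (95% interval -0.13 to 0.80) and at -0.11 ± 0.21 in PF_LPS against PF (-0.58 to 0.36). For EtOH_LPS against PF_LPS it was 0.42 ± 0.21, with an unadjusted p of 0.0746.

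Anpep encodes aminopeptidase N, which shortens angiotensin III (ENSMUSG00000039062, chr7:79821803-79861059, minus strand). It had 29.1, 52.2 and 46.5 FPKM in EtOH_LPS, 37.9, 38.2 and 25.4 FPKM in PF_LPS, 35.3, 39.7 and 31.1 FPKM in EtOH, and 34.8, 37.7 and 35.6 FPKM in PF. The PF libraries were the closest together, with a coefficient of variation of 4.14%, and the EtOH_LPS libraries the farthest apart, with 28.3%. The LPS fold changes were 0.23 ± 0.23 and -0.11 ± 0.23 log2 units in ethanol-fed and pair-fed mice, with adjusted p = 0.584 and 0.788.

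Mme encodes neprilysin, which cuts angiotensin I to the peptide that Mas recognises (ENSMUSG00000027820, chr3:63241537-63386030, plus strand). It had 76.2, 94.1 and 62.8 FPKM in EtOH_LPS, 73.1, 70.8 and 45.7 FPKM in PF_LPS, 53.9, 78.4 and 62.6 FPKM in EtOH, and 69.2, 50.4 and 39.8 FPKM in PF. The coefficient of variation within a group was 19.1 to 28%, and the libraries overlapped in every LPS and every ethanol comparison. LPS left it at 0.25 ± 0.26 log2 units in both diets (95% interval -0.32 to 0.82 in each). For ethanol against pair-feeding, pooled, it was 0.31 ± 0.18 (-0.10 to 0.71; adjusted p = 0.682).

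The peptidases sit among the brush border genes of the proximal tubule, and most of these did not pass the test. Of 20 tested brush border hydrolases and receptors, 1 rose and 0 fell in each diet with LPS. It was Ezr, the ezrin that ties microvilli to actin, which rose by 0.91 log2 units in both diets. The median of the list was 0.17 in ethanol-fed and -0.11 in pair-fed mice, beside 0.02 and -0.01 for all genes. Of all genes tested, 17.1% and 18.2% were called in these diets with LPS. EtOH_LPS library 2 held the highest of the 12 values for 5 of the 9 members (Ren1, Agt, Mme, Enpep and Anpep). Scaling to equal total FPKM, equal protein coding total or quantiles shifted the median gene by -0.27, -0.30 and -0.12 log2 units in ethanol-fed mice and by -0.41, -0.29 and -0.12 in pair-fed mice. With that shift the uncalled LPS changes of Ren1, Ace, Mme, Enpep, Anpep and Atp6ap2 in ethanol-fed mice turned sign under at least 1 scaling. Relative to the median gene, Enpep (0.06 to 0.32), Anpep (0.05 to 0.21) and Atp6ap2 (0.06 to 0.30) stayed above 0 in ethanol-fed mice, while Ren1 (-0.16), Ace (-0.04) and Mme (-0.002) lay below 0 under quantile scaling and above 0 under the deposited values and the other scalings. Apart from Ren1, as given above, none of these 6 genes was called in any of the 24 alternatives of the LPS comparison in either diet.

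The members were ranked by FPKM, which is per length of transcript, and Agtr1a, Agt and Mas1 held the last 3 places in every group. Ren1 held rank 2 in EtOH_LPS, rank 6 in PF_LPS, rank 3 in EtOH and rank 5 in PF, and Ace rank 6, rank 4, rank 5 and rank 4. In EtOH_LPS the order of mean levels was Atp6ap2 at 93.3, Ren1 at 91.7, Enpep at 89.8, Mme at 77.7, Anpep at 42.6, Ace at 41.9, Agtr1a at 11.4, Agt at 11 and Mas1 at 0.161 FPKM. In PF it was Enpep at 70.6, Atp6ap2 at 63.1, Mme at 53.1, Ace at 51.0, Ren1 at 46.1, Anpep at 36.0, Agtr1a at 18.0, Agt at 4.43 and Mas1 at 0.454 FPKM. Neighbours in these orders overlapped in their libraries, except Mme over Anpep, Ace over Agtr1a and Agt over Mas1 in EtOH_LPS, and Enpep over Atp6ap2, Anpep over Agtr1a, Agtr1a over Agt and Agt over Mas1 in PF. Agtr1a overlapped Agt in EtOH_LPS and in PF_LPS, and stood above it without overlap in EtOH and in PF.

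Across the 12 libraries the members did not vary as a block. Agt ran with Anpep (Pearson r = 0.62 of log2 values over 12 libraries, 0.64 of residuals around the group means) and with Mme (0.61 and 0.37), and Enpep ran with Anpep (0.61 and 0.49). Agtr1a and Atp6ap2 stood at -0.01 over the libraries and at 0.80 in the residuals. Agt stood at -0.56 and -0.76 with Agtr1a, and at 0.10 and -0.70 with Atp6ap2. Ace stood at -0.54 and -0.70 with Atp6ap2, and at 0.22 and 0.66 with Anpep. Ren1 ran with Agt at 0.56 over the libraries and 0.57 in the residuals, and with Ace at -0.47 and -0.14. These are descriptions over libraries that share group, depth and GC trend, with no test. The genes most like Agtr1a over the 12 libraries were Ankrd46 (r = 0.972), Add3 (0.966) and Slc25a15 (0.961). For Ren1 they were Ctsz (0.98), Fkbp8 (0.957) and Elmo3 (0.948). The closest gene was Cnp for Agt (0.917), Atp11a for Ace (0.901), Hcn3 for Enpep (0.922), Arhgef26 for Mme (0.908), Aifm3 for Anpep (0.86) and Rab1a for Atp6ap2 (0.902).

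The other listed genes of the pathway were peptidases, cathepsins and receptor partners. Of 27 listed genes, members included, 19 were tested. In EtOH_LPS against EtOH limma called 0 of them, with 1 at an unadjusted p below 0.05 and a median of 0.14 log2 units, and in PF_LPS against PF 0 rose and 1 fell, with a median of -0.11. The gene called was Agtr1a. Of all genes tested, 17.1% and 18.2% were called in these comparisons. Among those not called were Agtrap, which binds the type 1 receptor (-0.21 ± 0.16 and -0.15 ± 0.16 in ethanol-fed and pair-fed mice), and the carboxypeptidase gene Prcp, which also cleaves angiotensin II (-0.12 ± 0.16 and -0.04 ± 0.16). Dpp3, a peptidase that degrades angiotensin II, stood at -0.26 ± 0.25 and -0.46 ± 0.25. In the kallikrein-kinin system, which shares ACE with this pathway, 1 of 6 tested genes rose in ethanol-fed mice with LPS (Cpe, by 1.15) and 1 fell in pair-fed mice (Cpm, by 1.01). Cpe stood at 0.73 ± 0.25 in pair-fed mice (limma adjusted p = 0.0635), and Cpm at -0.09 ± 0.18 in ethanol-fed mice. The interaction of diet and LPS was called for neither gene. Cpe, a carboxypeptidase of peptide hormone processing, also fell by 1.16 ± 0.18 in both ethanol groups against both pair-fed groups (adjusted p = 0.0263). It was the only listed gene called in any ethanol comparison.

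Of 17 tested genes that govern renin release, 3 rose and 2 fell in EtOH_LPS against EtOH, where 10.7% of all genes rose and 6.39% fell. In PF_LPS against PF 5 rose and 5 fell, where 11.3% of all genes rose and 6.89% fell. Ptgs2 encodes a cyclooxygenase whose prostaglandins, when made in the macula densa, stimulate renin. The cells that carried its RNA in bulk cortex were not identified. Ptgs2 had 10.7, 9.60 and 7.66 FPKM in EtOH_LPS and 7.22, 10.2 and 7.23 FPKM in PF_LPS, against 0.120, 0.116 and 0.108 FPKM in EtOH and 0.342, 0.235 and 0.0697 FPKM in PF. It rose by 3.20 ± 0.18 and 2.91 ± 0.18 log2 units in ethanol-fed and pair-fed mice (adjusted p = 1.13e-07 and 2.7e-07). Ptges, which makes prostaglandin E from its product, rose by 1.52 and 1.05, and the gap junction gene Gja1 by 1.19 and 0.99. Casr, the calcium-sensing receptor that restrains renin, fell by 1.09 and 1.69, and Ednrb, an endothelin receptor, by 1.20 and 1.09. In pair-fed mice Pde3b and Creb1 rose by 0.93 and 0.70, and Vdr, Adcy6 and Prkaca fell by 1.1, 0.86 and 0.61. These 5 were not called in ethanol-fed mice, where Pde3b stood at 0.58 ± 0.25, Creb1 at 0.04 ± 0.18, Vdr at 0.46 ± 0.31, Adcy6 at -0.53 ± 0.25 and Prkaca at -0.23 ± 0.17. The interaction of diet and LPS in limma called 0 of the 17 genes, with 2 at an unadjusted p below 0.05, Vdr (adjusted p = 0.86) and Creb1 (adjusted p = 0.988). Ren1 was not called in either diet.

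**Figure D4:**
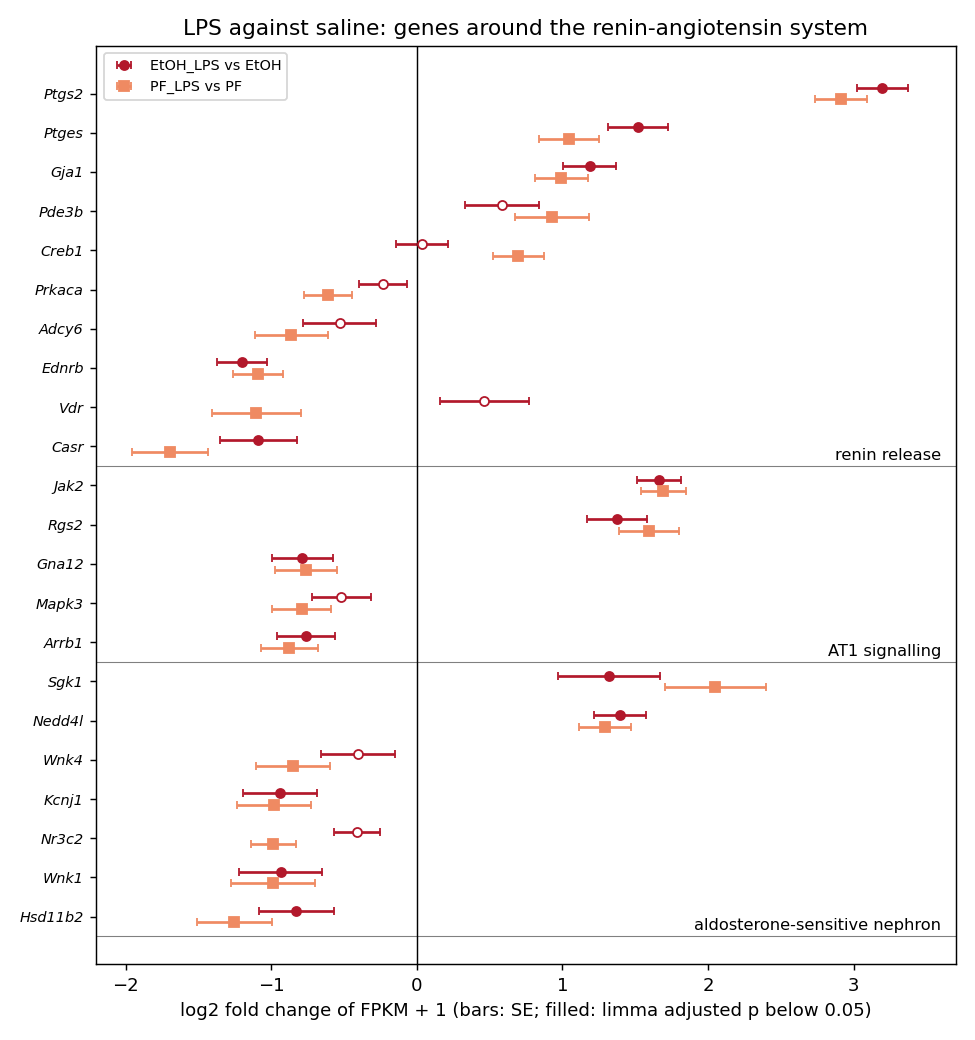
Log2 fold changes with SE for EtOH_LPS against EtOH and PF_LPS against PF, for the genes of the lists of renin release, type 1 receptor signalling and the aldosterone-sensitive nephron that were called in at least 1 of these comparisons; filled symbols mark limma adjusted p below 0.05. Ptgs2 is the highest at 3.20 and 2.91, and Casr is at -1.09 and -1.69.

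Downstream of the type 1 receptor, 2 of 18 signalling genes rose and 2 fell in ethanol-fed mice with LPS, at a background of 17.1% of all genes called in either direction. In pair-fed mice 2 rose and 3 fell, at a background of 18.2%. Jak2, a kinase the receptor uses, rose by 1.66 ± 0.15 and 1.69 ± 0.15 log2 units, and Rgs2, which ends Gq signalling, by 1.37 ± 0.21 and 1.59 ± 0.21. Arrb1, which uncouples and internalises the receptor, fell by 0.76 and 0.88, and the G protein gene Gna12 by 0.79 and 0.76. Mapk3 fell by 0.79 in pair-fed mice (adjusted p = 0.019). The list medians were 0.03 and -0.14, beside 0.02 and -0.01 for all genes.

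Among 14 genes of the aldosterone-sensitive nephron, the hormone's target cells, 2 rose and 3 fell in ethanol-fed mice with LPS, and 2 rose and 5 fell in pair-fed mice, beside the same backgrounds of 17.1% and 18.2%. Sgk1, the kinase that aldosterone induces, had 44.2, 111 and 105 FPKM in EtOH_LPS and 68.5, 56.5 and 114 FPKM in PF_LPS, against 28.9, 27.3 and 39.7 FPKM in EtOH and 17.0, 20.5 and 15.7 FPKM in PF. It rose by 1.32 ± 0.35 and 2.05 ± 0.35 log2 units (adjusted p = 0.0215 and 0.00144), with no overlap in either diet. Nedd4l, the ubiquitin ligase that removes the sodium channel, rose by 1.39 and 1.29. Hsd11b2, which shields the mineralocorticoid receptor from corticosterone, fell by 0.83 and 1.25, Kcnj1 by 0.94 and 0.98, and Wnk1 by 0.94 and 0.99. Nr3c2, the mineralocorticoid receptor itself, fell by 0.98 in pair-fed mice (adjusted p = 0.000863) and stood at -0.41 ± 0.16 in ethanol-fed mice (adjusted p = 0.101). Without the 3 libraries of low GC slope, the counts were 2 higher and 4 lower of 14 in each diet.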

How the data were processed

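The authors deposited 1 table of FPKM values for 47719 Ensembl genes in 12 libraries. The labels' protocols name mirVana for total RNA and a stranded library kit that depletes ribosomal RNA. The build was mm10 and the tools included TopHat2 2.0.4, Cuffnorm, Cuffdiff 2.1.1, FastQC 0.10.1 and Cufflinks 2.2.1, per the submitters' processing notes. No source used here gives the strand setting, annotation release or fragment totals, so counting error could not be computed and no count model was run. Symbols, coordinates and GC content came from GENCODE M21 (GRCm38), which matched 47219 genes.

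Values were analysed as log2(FPKM + 1), which understates fold changes of low genes. The 14109 genes that reached 1 FPKM in 3 or more of the 12 libraries were tested. All libraries entered a limma 3.58.1 fit (R 4.3.3) of the 4 group means, with an intensity trend and a robust prior. P-values are two-sided and adjusted by Benjamini-Hochberg over all genes tested in each of 7 comparisons; all adjusted p of genes are limma's. The interaction and the average over diets were added to the comparisons the design names. The fit was tested on simulated data. Intervals and descriptions were computed in Python 3.11.15 (SciPy 1.17.1). For single genes, 3 against 3 libraries could not reach p under 0.1 by permutation.

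The 9 members and the 18 gene lists (205 entries, 204 found in the table) were chosen with earlier results of these data known. Some planned results and list genes are not reported here, and the list counts leave them out. All members are described. Of each list, called genes may be named, at most 6 per comparison by fold change, and any gene of the pathway list. The removal of the GC trend (lowess, span 0.3) and the fits without 3 libraries were chosen after seeing the data.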

Additional observations from a re-analysis of the deposited data

How the results depend on the processing

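The number of members called in PF_LPS against PF was 1, and 0 with no filter on low values, where 36616 genes entered the adjustment. Leaving out 1 library at a time gave 0 to 1 members called there and in EtOH_LPS against EtOH. In EtOH_LPS against EtOH, 0 members were called as deposited, 1 (Agtr1a) with equal total FPKM, equal protein coding total, quantile normalization or the GC trend removed, and 2 (Agtr1a and Ren1) without EtOH_LPS library 1, PF_LPS library 2 and PF library 1. With LPS averaged over diets the count was 1, and 2 (Agtr1a and Agt) with the GC trend removed and without those 3 libraries. The causes were not tested. In the ethanol comparisons and the interaction the count was 0 under every alternative run.

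The labels number the replicates and name no pairing. Of 12 same-numbered pairs, 2 had deviations from the group means correlated over 0.1 (range -0.206 to 0.237). These deviations also carry the GC trend of each library, so they cannot decide whether libraries were paired. With the replicate number as a block, 1454 genes were higher and 829 lower in PF_LPS against PF, against 1589 and 972 without it, and no call of a member changed. In the pooled ethanol comparison the block called 3 genes higher and 6 lower, against 14 and 31 without it.

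Over all alternatives, genes called lower numbered 351 to 2371 in ethanol-fed mice (902 as deposited) and 427 to 2685 in pair-fed mice (972), and those called higher 968 to 1805 (1504) and 841 to 1745 (1589). Equal total FPKM gave 968 higher and 1862 lower in ethanol-fed and 841 higher and 2685 lower in pair-fed mice. Pooled ethanol calls ranged over 1 to 47 higher and 4 to 57 lower. Fragment totals are unknown, so the depth behind the low values of Mas1 is too, and the spread of Ren1 left a 95% interval of -2.61 to 1.29 log2 units in pair-fed mice.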
